A study of Mus musculus with 4 samples.

Results

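The genes described here form a set of 37 that guard cells against oxidants, break down reactive chemicals and metabolise dopamine, followed across astrocyte cultures grown from 4 brain regions of the mouse. The members are a list of gene names, drawn up with earlier results of these data known, and each was looked up in the array's probe annotation under its current or former symbol. A probe set naming a single gene was found for 33 of the 37, out of 12393 genes named in this way on the array, and all 33 gave a signal above the floor defined here on at least 1 array. Prdx6, Maob and Por had no such probe set, and the 5 probe sets for Prdx1 name a second gene as well, so these 4 members were not analysed here. The cultures came from CD-1 pups, an outbred stock, taken on postnatal day 3, with no treatment and no genetic change named. They were grown from the subventricular zone (SVZ), a germinal layer beside the lateral ventricle; the ventral mesencephalon (VM), the floor of the midbrain where dopamine neurons lie; the olfactory bulb (OB); and the hippocampus (HC). Adherent cells were shaken to enrich astroglia, replated and kept as monolayers in medium with serum. The series gives both 3 and 4 as the number of littermates whose tissue was used, so each culture is a pool of animals and the number in it is not settled here.

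As background, astrocytes hold much of the brain's glutathione and supply neurons with its precursors. The transcription factor Nrf2, encoded by Nfe2l2, is held at a low level by Keap1, and oxidants or reactive electrophiles release it to act on antioxidant response elements in genes for glutathione synthesis, thioredoxin recycling, haem breakdown and quinone reduction. Dopamine that leaves a neuron is oxidised by monoamine oxidase, which yields hydrogen peroxide, or turns into quinones, so that the enzymes in this set are among those by which midbrain astrocytes are thought to protect dopamine neurons.

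Each region has 1 array, so differences could not be checked against replicates and p-values were not calculated. A fixed fold of 2 stands in for a test. Signals are the deposited intensities on a linear scale. A floor of 122.1, the median of all signals, marks where values come close to background; lower values were raised to it before folds were taken, so a fold against such a value is given as "at least". As the only gauge of error, probe sets of the same gene scattered by an SD of 0.16 per array on the log2 scale (1972 genes), which makes 0.23 for a difference between a pair of arrays; differences under 0.46, or 1.38-fold, are called within this scatter. It covers the measurement of one RNA and not the spread between cultures. Since the cultures are bulk samples, fewer cells of a type and less RNA per cell cannot be told apart.

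The labelled cell type was checked against marker genes. All 10 astrocyte markers were above the floor on every array, with a summed signal of 14948 in VM, 23897 in OB, 24880 in SVZ and 36107 in HC. The single markers did not all follow that sum: 4 of the 10 (Gfap, Slc1a3, Glul and Aldoc) were lowest in VM, 3 (Aldh1l1, Aqp4 and Sox9) in OB and 3 (Gja1, Slc4a4 and Fgfr3) in SVZ. The 12 markers of microglia and macrophages summed to 366 in VM and 570.1 in SVZ but 32910 in OB and 35544 in HC, and the receptor Csf1r among them read 90.9, 55.6, 4073 and 5099 in VM, SVZ, OB and HC. The sum over 10 markers of fibroblasts and meninges was 5516 in SVZ, 18756 in HC, 37992 in VM and 43476 in OB. The 6 neuronal markers summed to 424 in OB, 821 in HC, 1431 in VM and 4260 in SVZ, with Stmn2 at 3465 and Gad1 at 671 in SVZ. The other 4 neuronal markers were below the floor there, and of them Tubb3 alone passed it anywhere, in OB at 123. The dopamine neuron genes Th, Ddc and Slc6a3 lay below the floor on all 4 arrays, and Nr4a2 passed it only in VM, at 131. Of 6 endothelial markers 1, Cdh5, passed the floor, in VM at 254.5. The choroid plexus markers summed to 10971 in HC, where Ttr alone read 8960, against 78.7 to 1054.5 elsewhere. The 5 oligodendrocyte markers with a probe set summed to between 652 in OB and 3843 in SVZ. Olig1 alone read 3805 in SVZ, where the others were below the floor, while Sox10 passed the floor only in OB, at 355. The cultures thus differed in their astrocyte, microglial and fibroblast transcripts, and what part this had in the values given below was not tested.

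**Figure D1:**
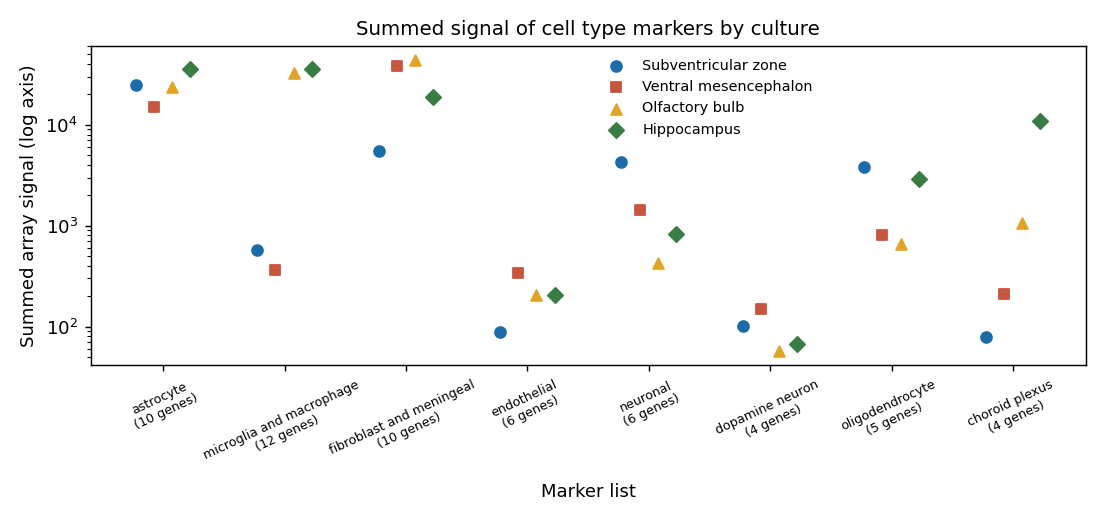
Summed array signal (log axis) of each list of cell type markers, 1 point per culture. The microglial sums of OB (32910) and HC (35544) lie far above those of SVZ (570.1) and VM (366), and the fibroblast sum is lowest in SVZ (5516).

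Some members varied widely between cultures and others hardly at all. Between the highest and the lowest culture, 17 of the 33 differed 2-fold or more (51.5%; background 31.0% of 7987 genes). The median was 2.02-fold, against 1.61-fold over those 7987 genes, which passed the floor on at least 1 array. Among genes above the floor on all 4 arrays, the median was 1.87-fold for 30 members and 1.58-fold for 6048 genes. Of the 33, 14 had their highest signal in SVZ (background 23.3%), 9 in OB (28.7%), 7 in VM (20.0%) and 3 in HC (28.0%). The lowest signal was in OB for 12 members (background 27.3%), in HC for 11 (21.5%), in VM for 6 (26.9%) and in SVZ for 4 (24.4%). At the other end, Gss, Txn1, Gsta4, Keap1 and Cbr1 differed by no more than the probe-set scatter in any pair of cultures.

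**Figure D2:**
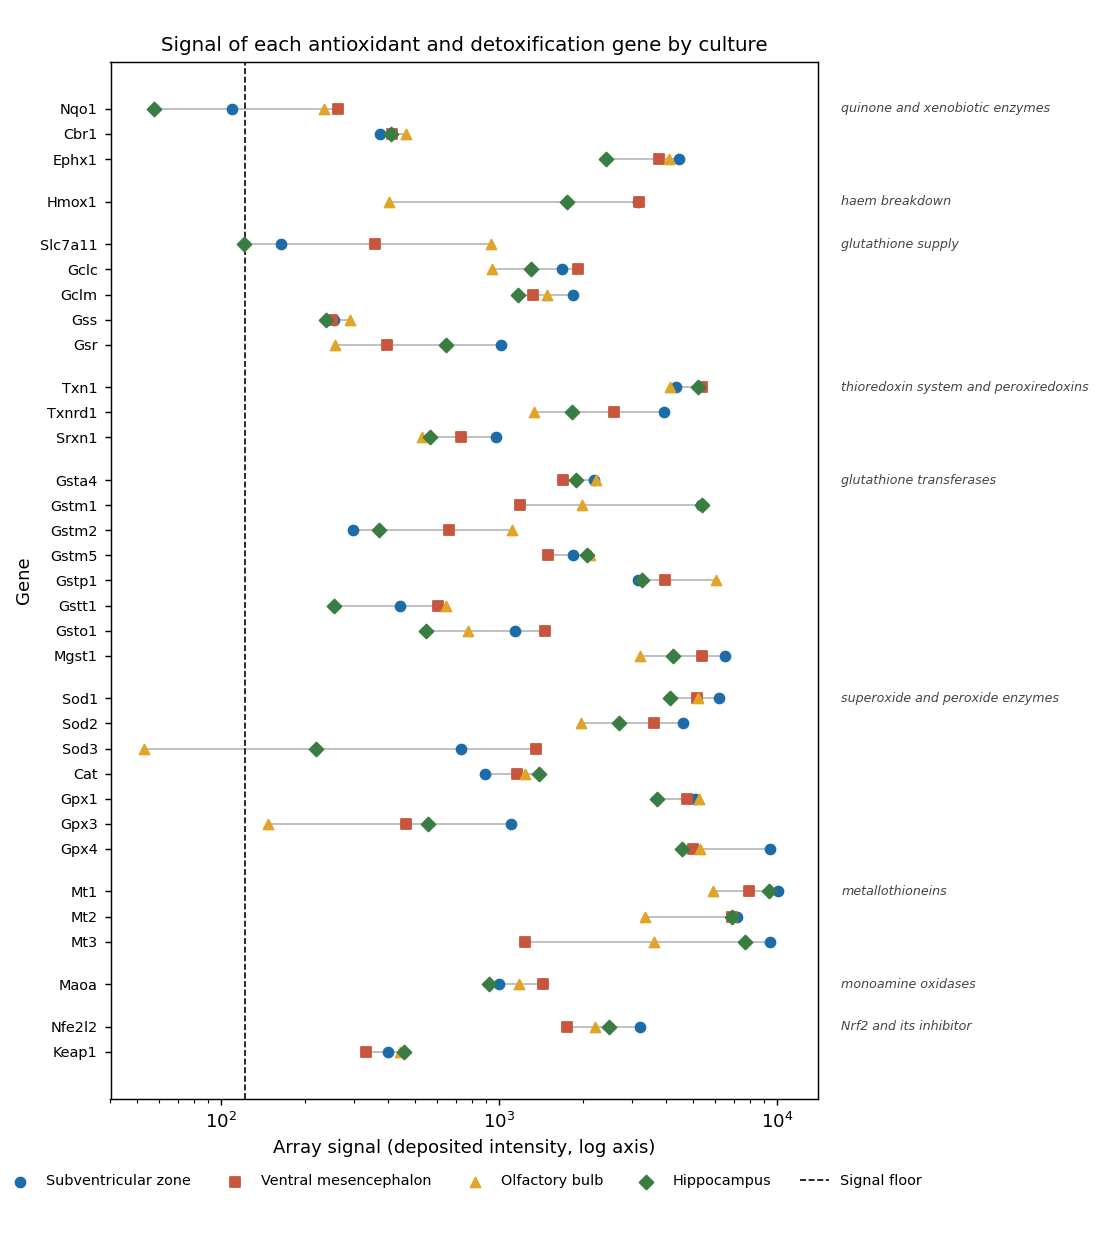
Array signal (log axis) of the 33 measured members, 1 row per gene and 1 symbol per culture, grouped by role; the dashed line is the floor of 122.1. Sod3, Hmox1, Slc7a11, Gpx3 and Mt3 spread most widely, while Gss, Txn1, Gsta4, Keap1 and Cbr1 hardly spread.

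By the probe sets used, only 5 members stood 2-fold away from all 3 other cultures at once. The haem oxygenase gene Hmox1, the peroxidase gene Gpx3 and the metallothionein gene Mt2 were lower in OB (3 of 33; background 1.55%). Slc7a11, which brings cystine into the cell, was higher in OB (1 of 33; background 1.87%), and Mt3, the brain metallothionein, was lower in VM (1 of 33; background 0.563%). No member met the rule as higher in SVZ (background 1.28%), VM (1.57%) or HC (2.49%), or as lower in SVZ (1.01%) or HC (0.488%). Set against the mean of the other cultures on the log2 scale, the median member lay at 0.40 in SVZ, 0.04 in VM, -0.12 in OB and -0.19 in HC, where the median of all genes lay between -0.06 and 0.01. Without the SVZ array the OB median was 0.09, so its sign depends on that array.

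Nfe2l2 and Keap1 themselves varied less than 2-fold, while some of their partners varied more. Nfe2l2 read 3220 in SVZ, 1748 in VM, 2214 in OB and 2484 in HC. Its lowest value was thus in the midbrain culture, 1.84-fold under that of SVZ and 1.42-fold under that of HC, while VM and OB differed by 1.27-fold, within the scatter. Keap1, the adaptor that marks Nrf2 for breakdown, read 399, 331, 439 and 456 in the same order, all within the scatter. A list of 11 other genes, drawn up as partners and regulators of Nrf2, held among others the small Maf proteins, the Bach repressors, Nfe2l1 and the zinc sensor Mtf1. Of these 11, 9 were above the floor and none met the rule against all 3 other cultures. Between their highest and lowest culture 4 of the 9 differed 2-fold or more (background 31.0%), and they are named after their values were seen. Maff, a small Maf protein, read 2010 in SVZ and 1521 in VM but 186 in OB and 214 in HC, a range of 10.8-fold. Atf4 ranged 2.97-fold, Bach1 2.38-fold and Mafk 2.37-fold, each lowest in HC. All 9 lay above the mean of the other cultures in SVZ (median 0.62) and all 9 below it in OB (median -0.25), where 47.3% and 48.0% of all genes lay above. The least of these shifts was 0.15 in SVZ and -0.05 in OB. Such a shift had a probe-set scatter of 0.19 (SD), so the shared sign rests in part on differences too small to resolve.

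Hmox1 read 3162 in SVZ, 3177 in VM, 401 in OB and 1749 in HC. This enzyme opens the haem ring to give biliverdin, iron and carbon monoxide, and its gene is a standard target of Nrf2 and of the repressor Bach1. The OB culture stood apart at 7.93-fold under VM, 7.89-fold under SVZ and 4.36-fold under HC, whereas SVZ and VM differed by 0.01 on the log2 scale. HC was 1.82-fold under VM and 1.81-fold under SVZ.

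In glutathione supply the transporter and the recycling enzyme varied most, the first highest and the second lowest in OB. Slc7a11, the cystine and glutamate exchanger that feeds glutathione synthesis, read 164 in SVZ, 359 in VM, 934.5 in OB and 121 in HC, the last just below the floor. OB was 2.60-fold above VM, 5.68-fold above SVZ and at least 7.65-fold above HC, and VM was 2.18-fold above SVZ. Gsr, which returns oxidised glutathione to its reduced form, read 1013 in SVZ, 396 in VM, 256 in OB and 646 in HC, so that OB was lowest, at 3.96-fold under SVZ and 2.53-fold under HC. A second probe set of Gsr gave the same order, from 653 in SVZ to 172 in OB. The enzymes of synthesis moved less: Gclc, the catalytic subunit of the rate-limiting ligase, read 1691, 1927, 943 and 1307 in SVZ, VM, OB and HC, with OB 2.04-fold under VM. Gclm, its modifier subunit, ran from 1170 in HC to 1851 in SVZ, and Gss, which adds glycine in the last step, from 238 in HC to 291 in OB.

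The thioredoxin system passes electrons from NADPH to oxidised proteins, and of its 3 measured members Txnrd1 varied most. Txnrd1, the reductase, read 3917 in SVZ, 2581 in VM, 1339 in OB and 1836 in HC. SVZ was 2.93-fold above OB and 2.13-fold above HC, and OB and HC lay within the scatter of each other. Srxn1, sulfiredoxin, which repairs over-oxidised peroxiredoxins, read 976, 727, 530.2 and 564 in the same order, highest in SVZ by 1.84-fold over OB but within the scatter of VM. Its further probe sets above the floor placed VM level with or above SVZ (264 and 261 by one, 271 and 204 by the other) and kept OB lowest. Txn1, the thioredoxin itself, ran only from 4103 in OB to 5360 in VM.

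The 8 glutathione transferases, which join glutathione to electrophiles, had no common direction. Gstm1 read 5330 in SVZ, 1192 in VM, 1991 in OB and 5362 in HC, so SVZ and HC were level and VM was 4.50-fold under HC. Gstm2, the next gene on the chromosome in RefSeq, whose human counterpart conjugates aminochrome, an oxidation product of dopamine, read 297, 661, 1117 and 369. It was lowest in SVZ and HC, where Gstm1 was highest, but both genes were higher in OB than in VM, Gstm1 by 1.67-fold and Gstm2 by 1.69-fold. For Gstm2, OB was 3.76-fold above SVZ and 3.03-fold above HC, and VM 2.22-fold above SVZ. Gstm5, of the same class, ran from 1502 in VM to 2120 in OB, a spread of 1.41-fold. The mu class genes are alike in sequence, and the Gstm1 probe set used carries the maker's suffix for probes that may bind related transcripts. A Gstm1 probe set without that suffix read 4074 in SVZ, 789 in VM, 1833 in OB and 4563 in HC, and by it Gstm1 met the rule as lower in VM, for 2 members in all instead of 1.

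Of the other transferases, Gsto1, the omega enzyme, read 1143 in SVZ, 1461 in VM, 775 in OB and 546 in HC, with VM 2.68-fold above HC. Its other probe set gave 732, 1964, 226.5 and 253 in the same order, so VM was highest by both while the distance from SVZ was much wider by the second. By that second probe set Gsto1 met the rule as higher in VM, though it carries the maker's suffix for probes that may bind related transcripts. Gstt1, of the theta class, read 439, 605, 646 and 254, and here HC was lowest, at 2.38-fold under VM. Mgst1, the microsomal enzyme, read 6494, 5370, 3207 and 4236, with SVZ 2.02-fold above OB. Gstp1, the pi enzyme, was highest in OB at 6010 against 3151 to 3951, and Gsta4, which clears the lipid peroxidation product 4-hydroxynonenal, ran from 1691 in VM to 2240 in OB.

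Among the enzymes that remove superoxide and peroxide, the secreted ones varied most. Sod3, the extracellular superoxide dismutase, read 730.3 in SVZ, 1359 in VM, 53.0 in OB and 220.0 in HC. VM was 1.86-fold above SVZ, 6.18-fold above HC and at least 11.1-fold above OB, where the gene was below the floor, and a second probe set, at 296, 517, 3.8 and 99.4, also had VM highest and SVZ next, with OB and HC below the floor. Gpx3, the secreted glutathione peroxidase, read 1102, 461, 147 and 556.5. OB was again lowest, 3.13-fold under VM and 7.48-fold under SVZ, and SVZ lay 1.98-fold above HC, just short of the 2-fold rule. With the floor at the 70th percentile of all signals, the OB value of Gpx3 no longer met the rule (log2 gap 0.36).

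The enzymes that stay within the cell differed less. Sod2, the mitochondrial dismutase, read 4604 in SVZ, 3610 in VM, 1976 in OB and 2700 in HC, with SVZ 2.33-fold above OB but within the scatter of VM. Its second probe set ran in the same order, but with SVZ (4135) and VM (2842) further apart than the scatter. Gpx4, which reduces lipid peroxides in membranes, stood out in SVZ at 9411 against 4984 in VM, 5275 in OB and 4543 in HC. VM, OB and HC lay within the scatter of each other and SVZ was 2.07-fold above HC. The probe set used carries the maker's suffix for probes that may bind related transcripts. The other probe set of Gpx4 read 8558, 4157, 4373 and 4296 in SVZ, VM, OB and HC. By it VM was lowest, 2.06-fold under SVZ, and SVZ over HC fell just short of 2-fold. Sod1, the dismutase of the cytosol, ran from 4129 in HC to 6160 in SVZ, and Gpx1, the main cytosolic glutathione peroxidase, from 3707 in HC to 5255 in OB. Cat, catalase, was lowest in SVZ at 893 and reached 1392 in HC.

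Metallothioneins, small cysteine-rich proteins that hold zinc and copper and take up oxidants, divided between the widely expressed pair Mt1 and Mt2 and the brain form Mt3. Mt3 read 9434 in SVZ, 1237 in VM, 3620 in OB and 7678 in HC. The midbrain culture was thus 2.93-fold under OB, 6.21-fold under HC and 7.63-fold under SVZ. Mt2 read 7195, 6895, 3353 and 6892, and here VM was level with SVZ and HC while OB was low, at 2.06-fold under HC and VM. That call ended after quantile normalization (log2 gap 0.97). Mt1 read 10038, 7940, 5890 and 9369, also lowest in OB, by 1.70-fold under SVZ; its probe set is of a kind that may bind related transcripts, and its other one was above the floor in SVZ (217) and HC (164.5) only.

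The 3 genes lie in 1 cluster on mouse chromosome 8. The sequences before the starts of Mt2 and Mt3 are shown because these related genes differed in which culture was lowest. Each line holds the 250 bases before the RefSeq transcript start, in build GRCm38.p6, for Mt2 chr8:94172368-94172617 on the plus strand and for Mt3 chr8:94152357-94152606 on the plus strand. Capitals mark the core of the metal response element, the site of the zinc sensor Mtf1, searched as TGCACNC or TGCGCNC on both strands:
Mt2: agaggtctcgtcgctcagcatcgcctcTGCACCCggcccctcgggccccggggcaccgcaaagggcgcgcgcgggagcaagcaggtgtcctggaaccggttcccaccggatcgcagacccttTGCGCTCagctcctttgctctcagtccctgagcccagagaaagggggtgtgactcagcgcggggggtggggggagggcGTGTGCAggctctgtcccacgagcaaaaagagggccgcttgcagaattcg
Mt3: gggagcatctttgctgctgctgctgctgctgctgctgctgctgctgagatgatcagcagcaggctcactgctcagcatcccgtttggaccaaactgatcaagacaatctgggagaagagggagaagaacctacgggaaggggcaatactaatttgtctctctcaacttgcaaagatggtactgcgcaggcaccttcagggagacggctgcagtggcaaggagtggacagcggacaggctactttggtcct
There were 3 matches in the Mt2 window and 0 in that of Mt3. The Mt1 window held 1, but it overlaps the gene's own RefSeq record, which starts further upstream, and is not shown. Over all 32851 such windows, 21.4% held at least 1 match and 5.17% held 2 or more. Promoter windows were found for 30 of the 37 members. A match is a string of letters and not a shown binding site, and elements outside the window were not searched.

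**Figure D3:**
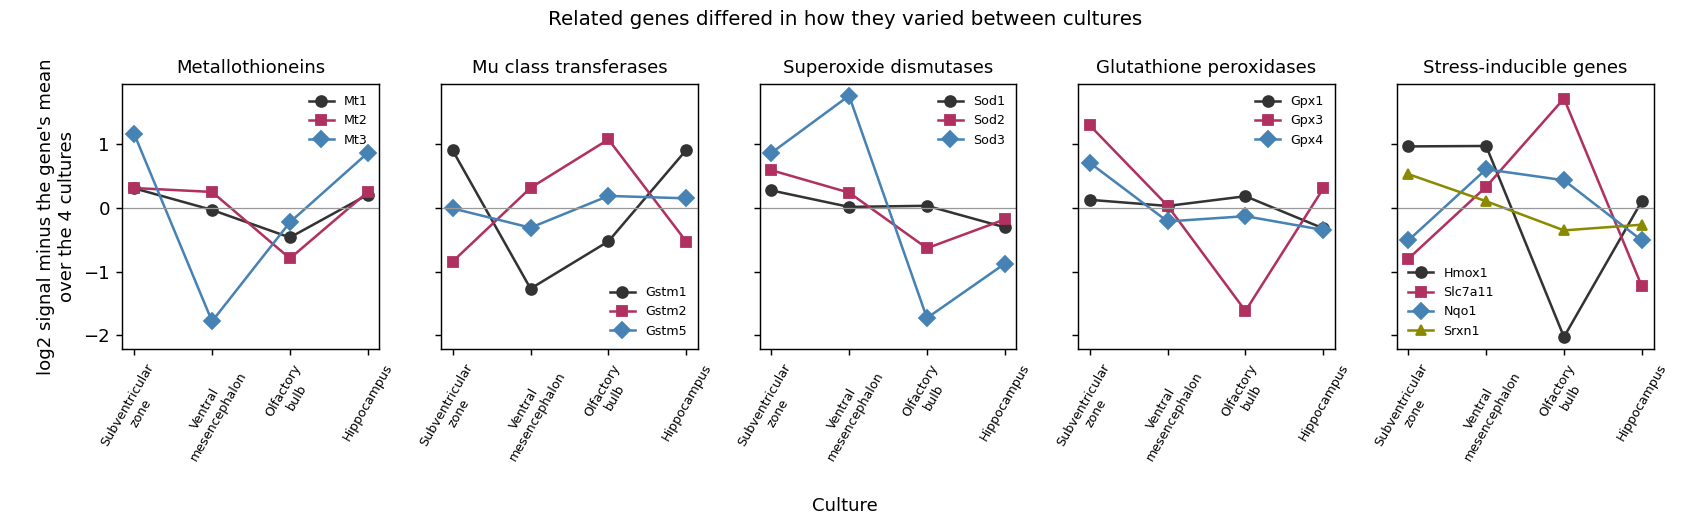
log2 signal of each gene minus its own mean over the 4 cultures, with values under 122.1 raised to that floor; the horizontal axis gives the culture, and lines join the points of a gene and have no other meaning. Mt3 drops in VM where Mt1 and Mt2 do not, Gstm1 and Gstm2 differ in which cultures are high, and Sod3, Gpx3 and Hmox1 are lowest in OB.

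A like comparison was made for the antioxidant response element. Its core, searched as TGACNNNGC on both strands, was in the windows of 8 members (Nfe2l2, Gstm5, Gclm, Prdx1, Mgst1, Mt2, Txnrd1 and Sod1), or 21.6% of the 37 windows of members against 10.2% of all windows. A second form, TGANTCAGC, which overlaps the first where its open base is C and also holds the site of AP-1 factors, was in 4 windows of members (Srxn1, Prdx1, Mt2 and Gstp1), or 10.8% against 1.02%. Srxn1 and Gstp1 are printed because they carry this form and differed in OB, where Gstp1 was highest and Srxn1 lowest. By the probe set used, however, the OB value of Srxn1 lay within the scatter of VM and HC. Both further probe sets also had OB lowest. The highest culture of Srxn1 is unsure as well: SVZ led by the probe set used, within the scatter of VM, and VM led by both further probe sets. The windows are chr2:152105274-152105523 on the plus strand and chr19:4037913-4038162 on the minus strand, with the TGANTCAGC match in capitals:
Srxn1: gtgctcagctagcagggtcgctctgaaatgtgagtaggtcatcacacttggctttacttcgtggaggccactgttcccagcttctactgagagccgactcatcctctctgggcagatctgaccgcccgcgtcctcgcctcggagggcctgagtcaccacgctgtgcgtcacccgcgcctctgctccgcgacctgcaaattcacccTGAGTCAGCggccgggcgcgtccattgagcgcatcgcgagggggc
Gstp1: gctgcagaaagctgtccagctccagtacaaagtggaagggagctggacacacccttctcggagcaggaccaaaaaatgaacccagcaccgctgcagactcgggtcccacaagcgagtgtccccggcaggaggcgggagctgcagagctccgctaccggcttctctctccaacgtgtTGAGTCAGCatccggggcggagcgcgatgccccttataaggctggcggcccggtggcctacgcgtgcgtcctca
Both were read from RefSeq's GRCm38.p6 windows 5′ to 3′ along the gene's own strand. The motifs were chosen with the signals and sequences in view, and nothing about Nrf2 binding was measured.

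Quinone and xenobiotic enzymes form a mixed group. Nqo1, which reduces quinones, dopamine quinone among them, to hydroquinones, read 109 in SVZ, 264 in VM, 234.5 in OB and 57.4 in HC. It passed the floor only in VM and OB, and VM was at least 2.16-fold above SVZ and HC and within the scatter of OB. Ephx1, microsomal epoxide hydrolase, was lowest in HC at 2418 against 3749 to 4445 elsewhere. Cbr1, a carbonyl reductase of quinones and aldehydes, ran from 372 to 464.

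For dopamine breakdown the set holds the monoamine oxidases, of which Maoa alone was measured. Maoa read 1002 in SVZ, 1436 in VM, 1180 in OB and 923 in HC. VM was highest, by 1.56-fold over HC, 1.43-fold over SVZ and 1.22-fold over OB, the last within the scatter. Of 23 further genes listed for dopamine and aldehyde metabolism 13 were above the floor, and their median lay at 0.22 in SVZ, -0.32 in VM, 0.04 in OB and -0.06 in HC relative to the mean of the other cultures. Aldh1a1, an aldehyde dehydrogenase also present in dopamine neurons, read 2300.4 in SVZ, 270 in VM, 1051 in OB and 676 in HC, 2.19-fold higher in SVZ and 2.51-fold lower in VM than in the nearest culture. Gch1, the first enzyme of biopterin synthesis, read 852, 462, 103 and 365.5, at least 2.99-fold lower in OB. Sult1a1, a sulfotransferase of phenols, read 636 in OB but 5.6, 8.4 and 71.9 in SVZ, VM and HC, at least 5.21-fold higher.

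In pairs, the SVZ and OB cultures differed most in this set. Between them 12 of 33 members were 2-fold or more apart (36.4%; background 17.4%), of which 10 were higher in SVZ (background 9.00%) and 2, Slc7a11 and Gstm2, higher in OB (8.39%). The 10 were Hmox1, Gsr, Txnrd1, Gstm1, Mgst1, Sod2, Sod3, Gpx3, Mt2 and Mt3. Between OB and HC 9 members were apart (background 13.9%), 6 of them higher in HC (8.69%) and 3 higher in OB (5.23%). Between SVZ and HC 4 were apart (background 11.5%), namely Txnrd1, Gsto1, Sod3 and Gpx4, all higher in SVZ (4.95%) and none higher in HC (6.54%). By its other probe set Gpx4 fell just short of 2-fold in this pair. Pairs that share a culture are not independent of each other.

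**Figure D4:**
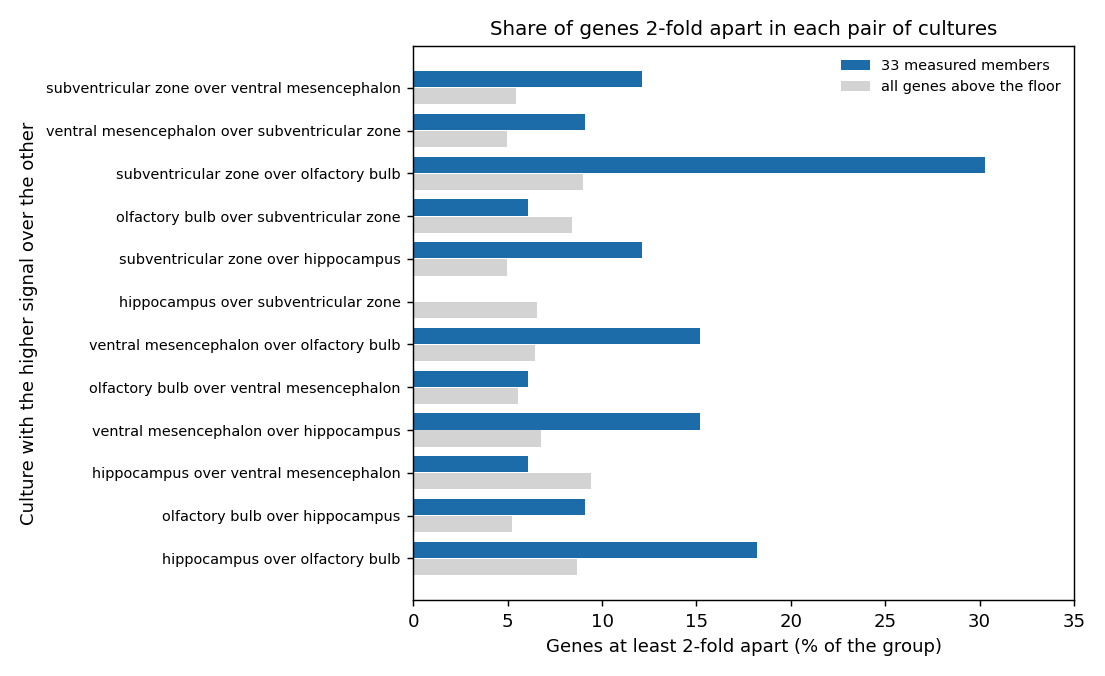
Share of genes at least 2-fold apart in each pair of cultures, by direction, for the 33 measured members (blue bars) and for the 7987 genes above the floor (grey bars). The largest share of members, 30.3%, is for SVZ over OB, where 9.00% of all genes passed.

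The midbrain culture, the one of most bearing on dopamine neurons, was neither uniformly high nor low. Against SVZ 7 members were 2-fold apart (background 10.4%): Gsr, Gstm1, Gpx3 and Mt3 were lower in VM (5.45% of all genes) and Nqo1, Slc7a11 and Gstm2 higher (4.97%). Against HC 7 were apart (background 16.2%), with Nqo1, Slc7a11, Gstt1, Gsto1 and Sod3 higher in VM (6.77%) and Gstm1 and Mt3 lower (9.43%). Against OB 7 were apart (background 12.0%), with Hmox1, Gclc, Sod3, Gpx3 and Mt2 higher in VM (6.46%) and Slc7a11 and Mt3 lower (5.53%). By the probe sets used, Mt3 was the only member 2-fold away from VM in the same direction in all 3 of these pairs. The 7 members that peaked in VM were Nqo1, Hmox1, Gclc, Txn1, Gsto1, Sod3 and Maoa, but for all except Sod3 at least 1 other culture lay within the scatter of VM. By its other probe set, however, Gsto1 read 732 in SVZ, the next culture, against 1964 in VM. Gsta4, Gstm1, Gstm5, Mt3, Nfe2l2 and Keap1 had their lowest value there. For Keap1 and Gsta4 every pair of cultures lay within the scatter, and a second Keap1 probe set had VM highest instead (201 against 166 to 193). The astrocyte marker sum was also lowest in VM (14948), with 4 of its 10 markers lowest there, and its part in the low Mt3 and Gstm1 values was not tested.

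Beyond the members, 119 other genes of these pathways were listed, of which 100 had a probe set and 82 passed the floor. Against all 3 other cultures, 2 of the 82 were higher in SVZ (2.44%; background 1.28%) and 1 lower (1.22%; 1.01%). In VM 1 was higher (1.22%; 1.57%) and 2 lower (2.44%; 0.563%), and in OB 2 were higher (2.44%; 1.87%) and 3 lower (3.66%; 1.55%). In HC 0 were higher (2.49%) and 0 lower (0.488%). Besides Aldh1a1, Gch1 and Sult1a1 these were Txnip, Sesn1, Slc40a1, Cyp1b1, Cyp7b1 and Ahr. Txnip, the thioredoxin inhibitor, read 279 in SVZ against 897, 1302 and 2248 in VM, OB and HC, 3.22-fold lower. Sesn1, a stress-induced sestrin, was 2.45-fold lower in VM, at 184 against 451 to 772. Slc40a1, the iron exporter ferroportin, reached 265 in OB and was below the floor in the other cultures, at least 2.17-fold higher.

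The genes listed as xenobiotic enzymes, with the receptor Ahr among them, shared the sign of their shift in SVZ and in OB. The 7 that passed the floor were all above the other cultures' mean in SVZ (median 0.45) and all below it in OB (median -0.82), where 47.3% and 48.0% of all genes lay above. Some shifts were small, the least being 0.08 in SVZ and -0.21 in OB. The probe-set scatter of such a shift had an SD of 0.19. Not all of the 7 were highest in SVZ. Cyp1b1, a cytochrome P450 that oxidises steroids and aromatic compounds, read 7829 in SVZ, 4005 in VM, 1176 in OB and 2768 in HC, 2.35-fold lower in OB. Cyp7b1, a sterol hydroxylase, read 913, 429, 72.6 and 323, 2.13-fold higher in SVZ and at least 2.65-fold lower in OB. Ahr, the receptor through which aromatic compounds induce Cyp1b1, was highest in VM instead, at 1735 against 661 in SVZ, 165 in OB and 288 in HC, a distance of 2.62-fold.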

How the data were processed

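Total RNA of 4 cultures was labelled with biotin and measured on 1 Affymetrix array each. The authors deposited a signal intensity per probe set on a linear scale, made with GCOS 1.4 per the submitters' processing notes; for algorithm, scaling and detection calls, nothing is stated in the sources used here. In all arrays the 2% trimmed mean was 400.1 to 400.2, so values were used as deposited. Equal totals assume that most transcripts are equal between cultures, and precision is limited by their number of arrays.

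Of the probe sets, 64 are controls, 20380 name 1 gene (20351 matched to RefSeq by identifier), 691 name several and 1555 none. A gene is represented by its probe set of highest mean log2 signal after flooring at the median (122.1). Every measured member is named. Other pathway genes are named where 2-fold away from all 3 other regions, as examples of a list, or as cell type markers. Maff, Atf4, Bach1 and Mafk did not meet that rule and were named after their values were seen. The members, lists, motifs and rules were chosen with earlier results of these data known. Counting was tested on simulated data (Python 3.11.15, pandas 2.3.3). Floor, scaling, choice of probe set, fold and omission of each array were varied. No build is named for the array, so coordinates are given for RefSeq promoter windows only.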

Additional observations from a re-analysis of the deposited data

How the results depend on the processing

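With 1 array per region only the processing could be varied. No paired analysis was possible because each region has a single array and no result comes from a test. Of the recomputed counts and medians, 112 stayed within 1.5 times the count or within 0.19 of the median, and 28 did not. For the 5 members that met the rule, 24 recomputed gaps stayed within 0.23 (log2) of the reported value, and the 1 that did not was Gpx3 in the olfactory bulb with the floor at the 70th percentile (0.36). Many of these gaps could not move, so their number is no measure of stability. Each of the 5 has only 1 probe set, without the suffix _s_at or _x_at, so both probe-set settings left it unchanged. A floor at the 25th percentile could not act either, since the signals compared lay above the reported floor. The floor at the 70th percentile left 4 members 2-fold apart between the subventricular zone and the ventral mesencephalon, against 7 as reported. It also left 4 between the ventral mesencephalon and the hippocampus, again against 7. Quantile normalization added 1 member, Gpx3, as higher in the subventricular zone. Without probe sets of the suffix _s_at or _x_at, 2 members were lower in the ventral mesencephalon. At 1.5-fold, 4 members were higher in the subventricular zone (12.1%, against 3.59% of all genes). In the ventral mesencephalon 1 was higher (3.03%, 3.61%) and 2 lower (6.06%, 2.12%), in the olfactory bulb 3 were higher (9.09%, 4.72%) and 5 lower (15.2%, 4.53%), and in the hippocampus 2 were lower (6.06%, 1.69%). At that fold the subventricular zone differed from the ventral mesencephalon in 11 members (33.3%, against 22.6% of all genes) and from the hippocampus in 14 (42.4%, 26.4%), the ventral mesencephalon from the olfactory bulb in 15 (45.5%, 27.9%) and from the hippocampus in 12 (36.4%, 32.7%), and the olfactory bulb from the hippocampus in 14 (42.4%, 29.9%).

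Leaving out each other region's array in turn gave 0 to 4 members higher and 0 to 2 lower in the subventricular zone, 0 to 2 higher and 1 to 2 lower in the ventral mesencephalon, 1 to 2 higher and 3 to 6 lower in the olfactory bulb, and 0 to 2 higher and 0 to 2 lower in the hippocampus. With an array left out a member has fewer cultures to differ from. In the subventricular zone the 4 higher and 2 lower came without the hippocampus array, and without the ventral mesencephalon array 2 were higher. In the olfactory bulb the 6 lower and 2 higher came without the ventral mesencephalon array. In the ventral mesencephalon the 2 higher and 2 lower came without the olfactory bulb array, and 1 was higher without the subventricular zone array. In the hippocampus the 2 higher came without the subventricular zone array, and the 2 lower without that array or that of the olfactory bulb. The causes were not tested. The median shifts ran from 0.25 to 0.46, 0.02 to 0.10, -0.10 to 0.09 and -0.38 to -0.04 in the same order of regions, with -0.38 arising without the olfactory bulb array, and 0.09 and -0.04 without the subventricular zone array. Signals near the floor, as for Nqo1, Slc7a11 and Sod3, give bounds and not folds.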

Other observations

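Further probe sets above the floor existed for 13 of the 33 members, 16 in all. They placed the highest culture as the reported probe set did in 11 of 16 and the lowest in 10 of 16, and both in 7 of 16. By their other probe set Sod1, Cat and Keap1 put another culture highest, with spreads of 1.11-fold, 1.45-fold and 1.21-fold. For Keap1 that culture was the ventral mesencephalon, lowest by the reported probe set. Both further probe sets of Srxn1 had the ventral mesencephalon highest in place of the subventricular zone. Gsto1 differed in size, with 8.67-fold between the highest and lowest culture by its other probe set against 2.68-fold by the one reported. Gstm1 showed the ventral mesencephalon lowest by 3 of its 4 probe sets.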
